A study of Sus scrofa with 6 samples.

Results

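Transcript levels of 10 imprinted genes (IGF2, IGF2R, PEG10, PLAGL1, MEG3, SNRPN, NDN, PHLDA2, DIRAS3 and NAP1L5) were measured in pig nuclear transfer embryos and in the cells that supplied their nuclei. The genes were chosen by name, and all probe sets that the platform annotation ties to one of them alone were taken: 28 of the 23999 probe sets of the Affymetrix Porcine Genome Array, and 10 of the 6765 genes that it names. Nuclear transfer places the nucleus of a cultured cell in an oocyte, and the question of the series is what DJ-1, the product of the gene PARK7 and a sensor of oxidative stress, does in early embryos made this way. The anti-DJ1 embryos (2 arrays) were injected with an antibody against DJ-1, the IgG embryos (2 arrays) with control IgG, and the non-injected embryos (1 array) with nothing. The donor cells (1 array) were the cultured fibroblasts used for the transfer, established from an adult Meishan pig, and all recipient oocytes came from a slaughterhouse. Each embryo array held a pool of 23 to 26 embryos collected 28 h after transfer, when many had just reached the 2-cell stage. Every group had 1 array in trial 1, and a second array of anti-DJ1 and of IgG embryos, from biologically different samples, formed trial 2.

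An imprinted gene is transcribed mainly from the copy inherited from one parent, because DNA methylation laid down in the egg or the sperm marks the copies differently and is kept through early development. Many imprinted genes set the growth of the fetus and placenta, and their marks are often disturbed in animals made by nuclear transfer. From work in human and mouse, 7 of the 10 genes are expressed from the paternal copy (IGF2, PEG10, PLAGL1, SNRPN, NDN, NAP1L5 and, in human, DIRAS3) and 3 from the maternal copy (MEG3, PHLDA2 and, in mouse, IGF2R). The array sums the RNA of both copies, so the signals below say nothing of which copy was transcribed. An embryo just past its first cleavage also still holds much RNA stored in the oocyte.

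The signals are MAS5 values, a summary of the probes of a set on a linear scale, and signals of different probe sets are not set against each other. A signal was called above background when it exceeded the highest of the array's 17 Tag control probe sets, which lay between 21.4 and 47.0. Of all probe sets, 55.8% to 71.0% did so on each array. Across probe sets, embryo arrays correlated with each other at r = 0.934 to 0.973 (10 pairs) and with the donor cell array at 0.606 to 0.632 (5 pairs). EF1A serves as a control of RNA length, with a higher 3′ to 5′ ratio for shorter labelled RNA. That ratio was 24.2 for anti-DJ1, 23.9 for IgG and 29.95 for non-injected embryos in trial 1, was 8.20 for anti-DJ1 and 9.34 for IgG embryos in trial 2, and was 4.23 for donor cells.

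The genes with at least 1 probe set above background on all 6 arrays were IGF2, PEG10, PLAGL1, SNRPN, PHLDA2 and DIRAS3. In all, 10 of the 28 probe sets were above background on every array, 12 on 1 to 5 arrays and 6 on none. Tests covered the 60% of probe sets with the highest mean signal, which kept 15 of the 28, from 9 genes. The 13 others had mean signals between 6.41 and 51.8, just under the lowest tested probe set of the list at 55.4, and neither probe set of MEG3 was tested. Of the 15, the probe sets of NDN and NAP1L5 and the IGF2 probe set Ssc.9365.5.A1_at had embryo means under the limit and entered the tests through the donor cells.

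**Figure D1:**
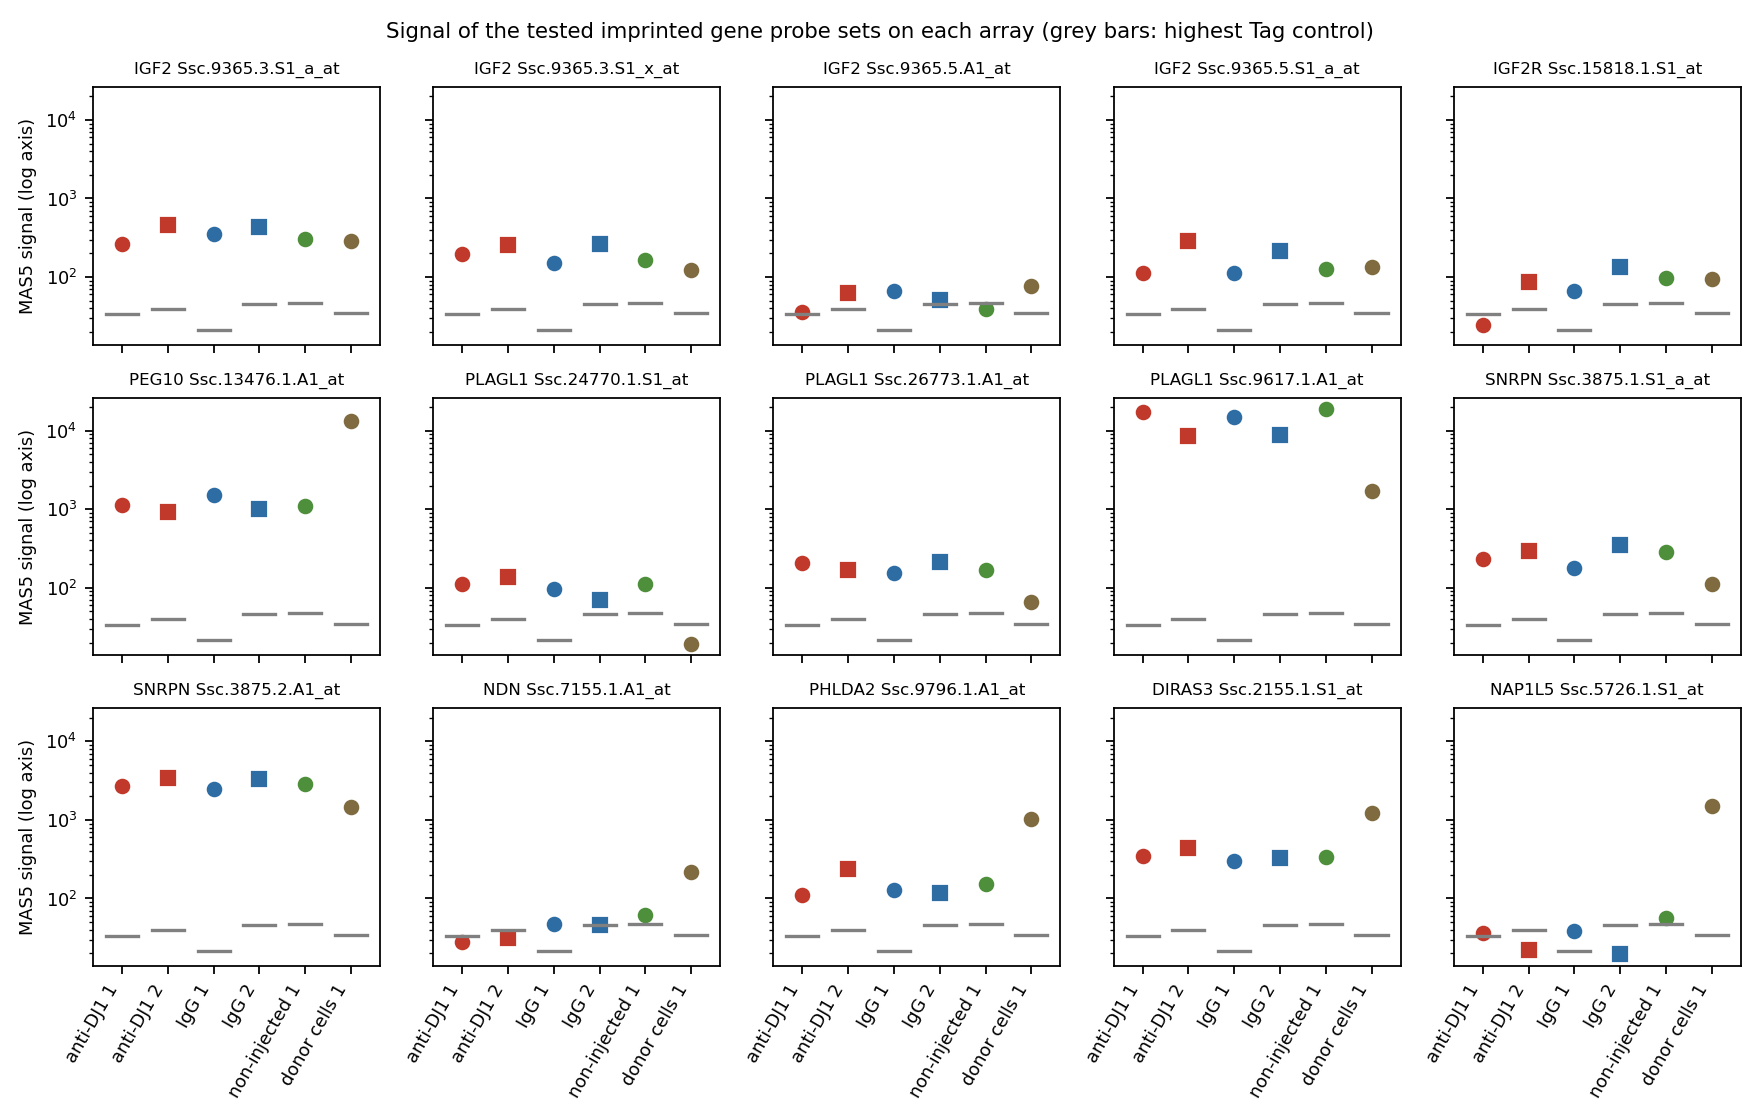
MAS5 signal (log axis) of the 15 tested probe sets of imprinted genes on each of the 6 arrays; circles are trial 1 and squares trial 2, and the grey bar on each array is its highest Tag control. NAP1L5, PEG10, PHLDA2, NDN and DIRAS3 lie higher in the donor cells than on any embryo array, and the 3 PLAGL1 and both SNRPN probe sets lie lower there.

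Anti-DJ1 embryos were set against IgG embryos to ask whether blocking DJ-1 altered the transcripts. None of the 15 tested probe sets passed the threshold (limma, adjusted p of 0.05), and across the array 0 of 14399 did, or 0%. Adjusted p-values of the imprinted genes lay between 0.879 and 0.994, and 1 probe set, that of IGF2R, had an unadjusted p under 0.05, against 812 of 14399. Log2 changes were positive for 10 probe sets and negative for 5, with a median of 0.07. The 95% confidence intervals reached from 0.23 to 1.06 to either side on the log2 scale, before any adjustment for the number of probe sets. PARK7 itself had a log2 change of -0.15 ± 0.14 (SE, adjusted p = 0.942), and since the antibody binds the protein, its transcript is no check of the injection.

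IGF2, a growth factor that drives fetal growth, has 13 probe sets on the array. Of these, 3 were above background on all 6 arrays, 5 were above it on none, and the 9 that were not tested had no signal above 75.7. Probe set Ssc.9365.3.S1_a_at had signals of 266 and 457 in anti-DJ1 embryos of trials 1 and 2, 349 and 432 in IgG embryos and 309 in non-injected embryos. The anti-DJ1 values enclosed the IgG values, with a log2 change of -0.15 ± 0.20 (SE). Probe set Ssc.9365.5.S1_a_at had 114 and 284 in anti-DJ1 embryos, 113 and 213 in IgG embryos and 127 in non-injected embryos. Its 2 trials stood further apart than its 2 treatments, and the log2 change was 0.21 ± 0.26. The other tested IGF2 probe sets had log2 changes of 0.15 ± 0.25 (Ssc.9365.3.S1_x_at) and -0.27 ± 0.48 (Ssc.9365.5.A1_at), so the 4 differed in sign.

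IGF2R, the receptor that takes IGF2 up for breakdown in lysosomes and also carries enzymes tagged with mannose 6-phosphate, had signals of 24.6 and 86.2 in anti-DJ1 embryos, 67.1 and 133 in IgG embryos and 97.7 in non-injected embryos. The anti-DJ1 array was below the IgG array within each trial, with log2 differences of -1.30 in trial 1 and -0.60 in trial 2, while the groups overlapped across trials. The anti-DJ1 signal of trial 1 was not above background. The fitted log2 change was -0.95 ± 0.38 (95% confidence interval -1.80 to -0.10), with an unadjusted p of 0.0327 and an adjusted p of 0.879 in limma. With no block for the trial it was -0.13 without anti-DJ1 replicate 1, -1.77 without anti-DJ1 replicate 2, -1.42 without IgG replicate 1 and -0.48 without IgG replicate 2.

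Among genes that restrain growth, PHLDA2, a brake on placental growth in the mouse, had signals of 111 and 237 in anti-DJ1 embryos, 129 and 119 in IgG embryos and 153 in non-injected embryos. Only the anti-DJ1 array of trial 2 stood above the IgG arrays, and the log2 change was 0.38 ± 0.29 (limma, adjusted p = 0.921). DIRAS3, a small GTPase of the RAS family that slows growth in human cells, had 343 and 437 in anti-DJ1 embryos, 297 and 332 in IgG embryos and 337 in non-injected embryos. Both anti-DJ1 arrays lay above both IgG arrays, with a log2 change of 0.30 ± 0.18 (limma, adjusted p = 0.920).

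PLAGL1, a zinc finger transcription factor that in the mouse acts on a network of other imprinted genes, has 3 probe sets, and all were tested. Probe set Ssc.9617.1.A1_at had signals of 17219 and 8659.6 in anti-DJ1 embryos, 14830.3 and 8805 in IgG embryos and 18676 in non-injected embryos. Treatments lay together within each trial, and the log2 change was 0.10 ± 0.11. Probe set Ssc.24770.1.S1_at had 110.3 and 137 in anti-DJ1 embryos, 96.5 and 69.7 in IgG embryos and 112 in non-injected embryos. Both anti-DJ1 arrays were higher than both IgG arrays, with a log2 change of 0.56 ± 0.38 (limma, adjusted p = 0.921). Ssc.26773.1.A1_at, with 205 and 168 in anti-DJ1 embryos, 155 and 215 in IgG embryos and 168 in non-injected embryos, differed in opposite directions in the 2 trials.

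SNRPN encodes a protein of the spliceosome, and its neighbour in the human imprinted region, NDN, encodes necdin, a growth suppressor of neurons. The SNRPN probe set Ssc.3875.2.A1_at had signals of 2699 and 3388 in anti-DJ1 embryos, 2449.8 and 3279.9 in IgG embryos and 2848 in non-injected embryos, and the groups overlapped (log2 change 0.09 ± 0.11). Its second probe set, Ssc.3875.1.S1_a_at, had 233 and 294 in anti-DJ1 embryos, 178 and 348 in IgG embryos and 288 in non-injected embryos, with the IgG values enclosing the anti-DJ1 values. NDN was not above background on either anti-DJ1 array, at 27.9 and 31.1, and was just above it in IgG embryos, at 48.0 and 46.4, and in non-injected embryos, at 62.1. The log2 change of -0.61 ± 0.44 had an interval from -1.59 to 0.37 (limma, adjusted p = 0.921), so a difference in NDN was not shown. NAP1L5, a relative of the nucleosome assembly proteins, had 36.0 and 22.3 in anti-DJ1 embryos, 38.5 and 19.7 in IgG embryos and 57.2 in non-injected embryos, and was not above background on either array of trial 2.

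PEG10, a gene derived from a retrotransposon and needed for the placenta in the mouse, had signals of 1129 and 920.4 in anti-DJ1 embryos, 1536 and 1004 in IgG embryos and 1098 in non-injected embryos on probe set Ssc.13476.1.A1_at. The anti-DJ1 array was lower than the IgG array in both trials, with log2 differences of -0.44 and -0.12, and the log2 change was -0.28 ± 0.13 (limma, adjusted p = 0.882). Its other 2 probe sets reached no signal above 32.7. MEG3, a long non-coding RNA, had 70.9 and 35.3 in anti-DJ1 embryos, 29.4 and 82.9 in IgG embryos and 63.8 in non-injected embryos on Ssc.5159.2.S1_at. The 2 groups each held 1 high and 1 low array, in opposite trials.

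Across the 15 probe sets, the anti-DJ1 and IgG arrays did not overlap for 3 (DIRAS3 and PLAGL1 Ssc.24770.1.S1_at higher in anti-DJ1, NDN lower), against 17.5% of all tested probe sets, of which 8.70% were higher and 8.76% lower. The same direction in both trials was seen for 7 of 15 (46.7%), 4 higher and 3 lower, against 51.3% of all tested probe sets, 24.5% higher and 26.8% lower. Both shares among the imprinted genes lie near those of the whole array.

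**Figure D2:**
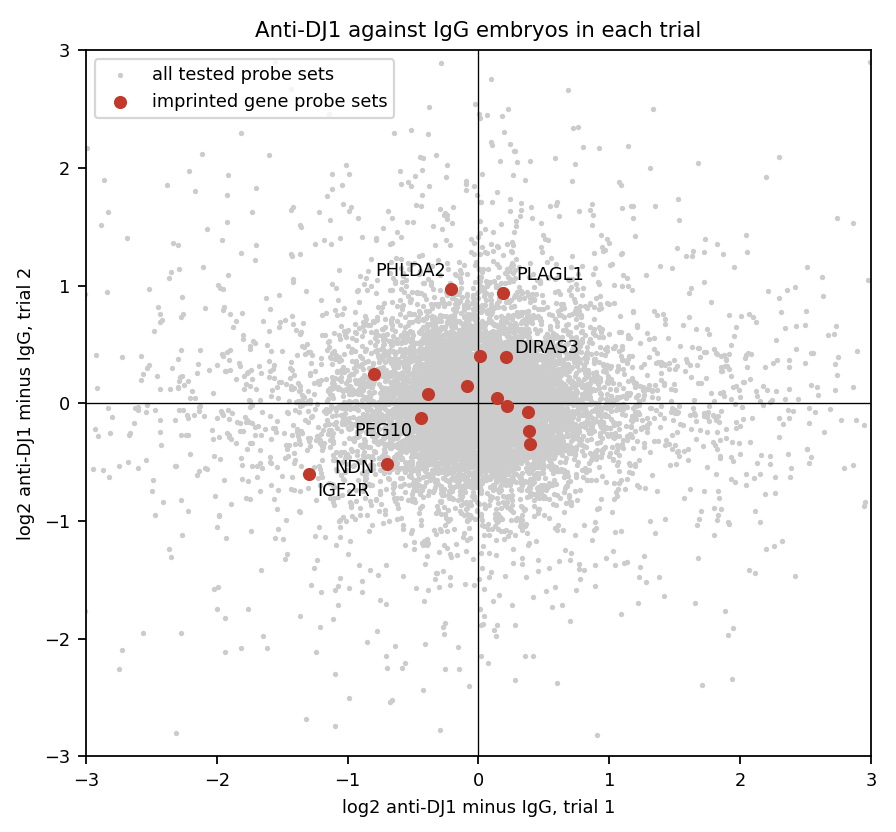
Log2 difference between anti-DJ1 and IgG embryos in trial 1 (x axis) and trial 2 (y axis); red points are the 15 tested probe sets of imprinted genes and grey points all 14399 tested probe sets, of which 28 lie beyond the axis limit of 3. IGF2R, NDN and PEG10 are lower in both trials, DIRAS3 and PLAGL1 Ssc.24770.1.S1_at higher in both, and PHLDA2 higher in trial 2 alone.

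Genes around the imprinted set were likewise counted from 3 lists, with each gene represented by its probe set of highest mean. None passed the threshold between anti-DJ1 and IgG embryos among 15 tested other imprinted genes (median log2 change -0.10), 13 tested genes of imprint protection and DNA methylation (median -0.01) and 10 tested genes of the IGF2 pathway (median -0.08). The median of the 9 tested imprinted genes was 0.03, beside -0.01 over all 5233 tested genes. DNMT1, the enzyme that copies DNA methylation after replication, had a log2 change of -0.20 ± 0.12 (limma, adjusted p = 0.920). OSBPL5 had the smallest unadjusted p of the other imprinted genes (limma, adjusted p = 0.879), with signals of 8.44 and 121 in anti-DJ1 embryos and 70.7 and 122 in IgG embryos. The array at 8.44 was not above background, and in trial 2 the signals lay side by side.

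The comparison of injected with non-injected embryos takes the mean of the anti-DJ1 and IgG groups, so it mixes injection with the antibody against DJ-1. It rests on 1 non-injected array, which is assumed to vary like the replicated ones. Its fitted log2 changes equal the mean of the trial 1 anti-DJ1 and IgG arrays minus the non-injected array. None of the 15 probe sets passed the threshold, against 238 of 14399 (1.65%) over the array, 173 higher (1.20%) and 65 lower (0.451%). Without the block for the trial, or without the mean-variance trend of the fit, 0 of 14399 passed. Adjusted p-values of the imprinted genes lay between 0.216 and 0.976 in limma, and 1 unadjusted p was under 0.05, against 2740 of 14399. Log2 changes were positive for 4 probe sets and negative for 11. Counted per gene, 1 of 9 was positive, with a median of -0.22, beside 47.0% positive and a median of -0.03 over all tested genes.

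IGF2R again had the smallest p, with a log2 change of -1.16 ± 0.47, an unadjusted p of 0.0330 and an adjusted p of 0.216 (limma). The change was -0.52 without the block for the trial, and without that block also -0.11 when anti-DJ1 replicate 1, the array not above background, was left out and -0.28 when IgG replicate 1 was. In trial 1, the IGF2R log2 difference from the non-injected array was -1.81 for the anti-DJ1 array and -0.51 for the IgG array. This comparison shares its anti-DJ1 and IgG arrays with the one above. PEG10 was the 1 gene with a positive value, at 0.26 ± 0.16 (limma, adjusted p = 0.420). PLAGL1 Ssc.9617.1.A1_at had a log2 change of -0.22 ± 0.13, and of 0.0034 under quantile normalization. SNRPN Ssc.3875.1.S1_a_at had -0.49 ± 0.29, NDN -0.69 ± 0.54 and NAP1L5 -0.56 ± 0.50, none of them past the threshold.

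In the surrounding lists, 1 gene passed between injected and non-injected embryos: AKT2, a kinase that relays insulin and IGF signals, at -0.72 ± 0.15 (limma, adjusted p = 0.0447). It was 1 of 10 tested genes of the IGF2 pathway, and 0 of 15 other imprinted genes and 0 of 13 imprint protection genes passed. Over all 5233 tested genes, 1.18% were higher and 0.516% lower. The AKT2 call was lost without the block for the trial or without the mean-variance trend, where no probe set passed. DNMT1, at -0.65 ± 0.14, had an adjusted p of 0.0519 in limma. EHMT2, a histone methyltransferase, had -0.77 ± 0.18 (limma, adjusted p = 0.0624). The imprinted genes COPG2, at -0.58 ± 0.14, and CALCR, at 0.89 ± 0.24, had adjusted p-values of 0.0656 and 0.0811 in limma.

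The comparison of embryos with donor cells sets the reconstructed embryo beside the cell type of its nucleus. Its fitted log2 changes equal the mean of the trial 1 embryo arrays minus the donor cell array, while the signal ranges cover all 5 embryo arrays. NAP1L5, PEG10, PHLDA2, NDN and DIRAS3 were lower in embryos, and PLAGL1 and SNRPN were higher, by every tested probe set. IGF2 and IGF2R did not pass the threshold. In probe sets, 10 of 15 passed (66.7%), 5 higher and 5 lower in embryos, against 77.1% of all tested probe sets, 36.0% higher and 41.0% lower. Most of the array thus differed between embryos and donor cells, and the share among the imprinted genes was no larger. All 5 embryo arrays lay on one side of the donor cell array for 12 of 15 probe sets, 6 higher and 6 lower, where 39.7% of all tested probe sets were higher in this way and 43.1% lower. The donor cells gave 1 array, and in RNA of whole pools fewer cells and less RNA per cell cannot be told apart. The EF1A 3′ to 5′ ratio also differed in this comparison. It was 24.2 for anti-DJ1, 23.9 for IgG and 29.95 for non-injected embryos in trial 1, and 4.23 for donor cells. Its part in these differences was not tested.

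**Figure D3:**
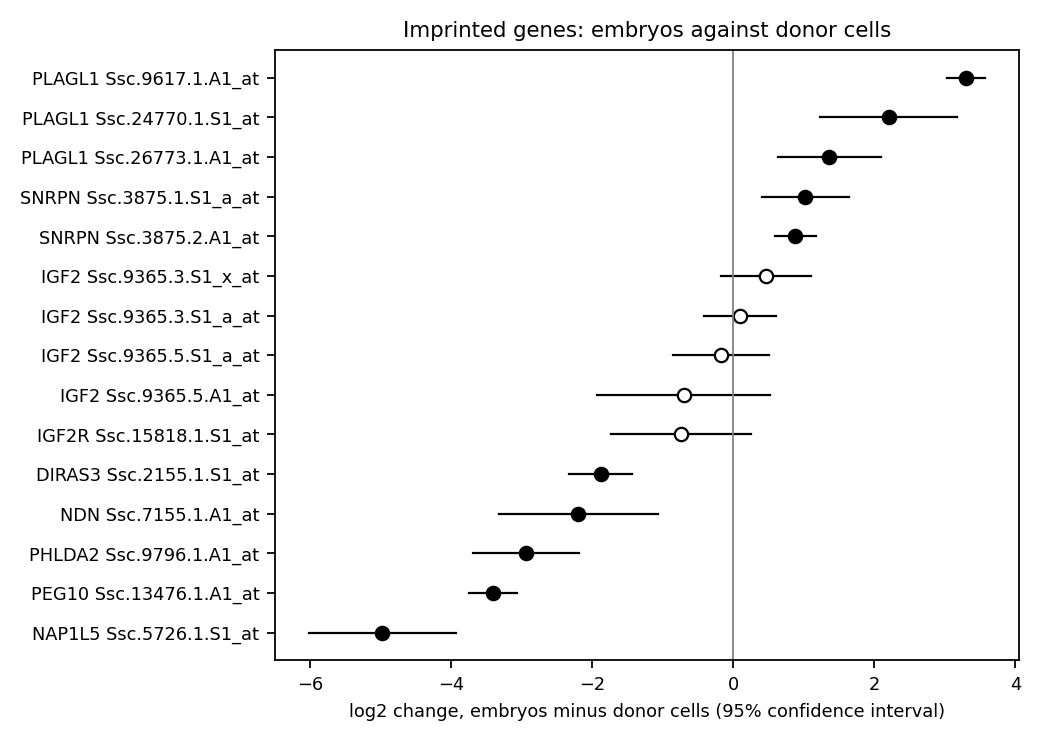
Log2 change between embryos and donor cells with its 95% confidence interval (limma) for the 15 tested probe sets of imprinted genes; filled points passed the adjusted p threshold of 0.05 and open points did not. The values run from 3.30 for PLAGL1 to -4.98 for NAP1L5, with the 4 IGF2 probe sets and IGF2R on either side of 0.

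NAP1L5 had signals of 19.7 to 57.2 on the embryo arrays, with a median of 36.0, and of 1497 in donor cells. It was above background on 3 of the 5 embryo arrays, and its log2 change, which takes in the other 2 as measured, was -4.98 ± 0.47 (limma, adjusted p = 3.03e-06). Since it met the limit on signal only through the donor cells, it was also fitted with no filter on all probe sets, where its adjusted p was 8.47e-06. On its 1 tested probe set, PEG10 had 920.4 to 1536 on the embryo arrays, with a median of 1098, and 13234 in donor cells. Its log2 change was -3.41 ± 0.15, or 10.6-fold lower in embryos (limma, adjusted p = 8.23e-09). These embryo values of PEG10 lay far above background on all 5 arrays, so this difference does not rest on a signal near the detection limit. It does rest on 1 of 3 PEG10 probe sets. The untested Ssc.24007.1.S1_at had 25.3 to 32.7 on the embryo arrays and 15.2 in donor cells. The untested Ssc.24007.2.S1_at had 1.08 to 31.7 on the embryo arrays and 1.39 in donor cells. Neither was above background in donor cells, so the untested probe sets did not show the fall in embryos.

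PHLDA2 had signals of 111 to 237 on the embryo arrays (median 129) and 1029 in donor cells, a 7.68-fold lower level in embryos with a log2 change of -2.94 ± 0.34 (limma, adjusted p = 1.56e-05). DIRAS3 had 297 to 437 on the embryo arrays (median 337) and 1209 in donor cells, 3.68-fold lower in embryos with a log2 change of -1.88 ± 0.20 (limma, adjusted p = 8.90e-06). NDN had 27.9 to 62.1 on the embryo arrays (median 46.4), 3 of them above background, and 218 in donor cells. Its log2 change, with the arrays not above background as measured, was -2.20 ± 0.51 (limma, adjusted p = 0.00238). NDN too met the limit on signal only through the donor cells, and with no filter its adjusted p was 0.00700. For each of these genes the embryo array with the highest signal was still below the donor cell array.

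PLAGL1 had signals of 8659.6 to 18676 on the embryo arrays and 1700.4 in donor cells on Ssc.9617.1.A1_at, 9.88-fold higher in embryos with a log2 change of 3.30 ± 0.12 (limma, adjusted p = 1.95e-09). On Ssc.24770.1.S1_at the embryo arrays had 69.7 to 137 and the donor cells 19.4, which was not above background, so embryos were at least 3.04-fold higher. The test is of the log2 change as measured, 2.20 ± 0.44 (limma, adjusted p = 0.000867). Ssc.24770.1.S1_at met the limit on signal only through the embryos, and with no filter its call was unchanged. The third probe set, Ssc.26773.1.A1_at, had 155 to 215 on the embryo arrays and 65.2 in donor cells, with a log2 change of 1.36 ± 0.33 (limma, adjusted p = 0.00303). All 3 probe sets gave one direction, with sizes that differed. With no block for the trial, the adjusted p of Ssc.26773.1.A1_at was 0.0618 when anti-DJ1 replicate 1 was left out and 0.0507 when IgG replicate 2 was.

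SNRPN had 2449.8 to 3388 on the embryo arrays and 1445 in donor cells on Ssc.3875.2.A1_at, a log2 change of 0.88 ± 0.13 (limma, adjusted p = 0.000121). On Ssc.3875.1.S1_a_at it had 178 to 348 on the embryo arrays and 110.4 in donor cells, a log2 change of 1.02 ± 0.28 (limma, adjusted p = 0.00602). All 5 embryo arrays were higher than the donor cells on both. The call rests on the fit with the trial as a block: without it, Ssc.3875.1.S1_a_at had an adjusted p of 0.0714, and when anti-DJ1 replicate 1, anti-DJ1 replicate 2 or IgG replicate 2 was also left out, those of Ssc.3875.2.A1_at were 0.0675, 0.0965 and 0.0673 and those of Ssc.3875.1.S1_a_at 0.0706, 0.0932 and 0.0801 (limma).

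IGF2 had log2 changes between embryos and donor cells of 0.09 ± 0.23, 0.46 ± 0.29, -0.17 ± 0.31 and -0.70 ± 0.55 on its 4 tested probe sets, none past the threshold. On Ssc.9365.3.S1_a_at the embryo arrays had 266 to 457 and the donor cells 286, and on Ssc.9365.3.S1_x_at the embryo arrays had 150.0 to 266 and the donor cells 122. These results for IGF2 depended on the scaling of the arrays. With quantile normalization, the log2 changes of Ssc.9365.3.S1_a_at and Ssc.9365.3.S1_x_at were 0.82 and 1.16 (limma, adjusted p = 0.00670 and 0.00335), and with a common 75th percentile 0.72 and 1.08 (adjusted p = 0.0131 and 0.00485). Those scalings moved the median of all tested probe sets by 0.42 and 0.61, and the 10 called imprinted probe sets kept their direction under both.

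IGF2R had signals of 24.6 to 133 on the embryo arrays, with a median of 86.2, and of 95.5 in donor cells, with donor cells inside the embryo range. Its log2 change was -0.74 ± 0.44 (limma, adjusted p = 0.150), and 0.03 when the non-injected array alone was set against the donor cells. MEG3 was above background on 4 of 5 embryo arrays, from 29.4 to 82.9 in all, and not in donor cells, at 28.5, on Ssc.5159.2.S1_at. By the mean of the embryo groups this puts MEG3 at least 1.57-fold higher in embryos, a value without a test. It does not hold for each array, since IgG replicate 1, at 29.4, lay beside the donor cells. The second MEG3 probe set, Ssc.5159.3.A1_a_at, had 6.60 to 33.6 on the embryo arrays and 4.84 in donor cells. It was above background on 1 of 5 embryo arrays and gave no such bound.

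Counted per gene by the probe set of highest mean, 2 of 9 tested imprinted genes were higher in embryos, 5 lower and 2 not called, with a median log2 change of -1.88. Over all 5233 tested genes, 34.9% were higher and 44.9% lower, with a median of -0.31. Of the 7 paternally expressed genes, 2 were higher and 4 lower, and of the 2 tested maternally expressed genes 1 was lower. NDN and NAP1L5 were tested only because of their signal in donor cells, so these counts and medians describe the genes that passed the limit on signal and not all members.

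Markers of the donor cells differed in the same comparison. Of 17 fibroblast markers on the array, 10 to 13 were above background on the embryo arrays and 14 in donor cells, with summed signals of 3715 to 4369 in embryos and 100097 in donor cells. The donor cell sum rests mostly on VIM, SPARC and FN1, at 31965, 29990 and 24455. VIM, the filament protein of fibroblasts, had 348 to 422 in embryos. Of 13 tested fibroblast markers, 11 were lower in embryos, COL3A1, COL1A2 and FBN1 by only 2.38-fold, 1.72-fold and 1.53-fold. The other 2, PDGFRB and DCN, were higher in embryos. DCN, the matrix protein decorin, was not above background in donor cells and met the limit on signal only through the embryos. LOX, S100A4, TIMP1 and COL5A1 met that limit only through the donor cells, where they were high. These counts describe the markers that passed the limit and not all markers. Epithelial keratins were bright in the donor cells labelled as fibroblasts, with KRT8 at 60.9 to 211 in embryos and 9907 in donor cells, and KRT19 at 2.89 to 24.1 in embryos and 3598 in donor cells. The epithelial adhesion genes CDH1, at 3057 to 3694 in embryos and 749 in donor cells, and EPCAM, at 3734 to 5574 in embryos and 3128 in donor cells, were higher in embryos. All 9 oocyte markers on the array were above background on every embryo array and 3 in donor cells, with summed signals of 71242 to 114710 in embryos and 219.5 in donor cells. Of 16 cumulus and granulosa markers, 5 to 9 were above background in embryos and 6 in donor cells, with sums of 1886 to 2532 in embryos and 11027 in donor cells. KRT8 is on that list, and without it the sums were 1770.2 to 2321 in embryos and 1119.6 in donor cells. Of 13 epithelial, endothelial and blood markers, 6 to 9 were above background in embryos and 8 in donor cells, with sums of 8980 to 11249 in embryos and 10847 in donor cells. The part of cell type in the differences of the imprinted genes was not tested.

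Of the 25 other imprinted genes on the array, 15 were tested, of which 6 were higher (40%) and 5 lower (33.3%) in embryos, with a median log2 change of -0.10. Over all tested genes the shares were 34.9% and 44.9%. Some lie close to members in the order of genes of the RefSeq annotation (assembly Sscrofa11.1). SLC22A2, an organic cation transporter with 3 genes between it and IGF2R, had 27.5 to 81.0 in embryos and 9199.8 in donor cells (limma, adjusted p = 3.29e-08). It was above background on 3 of 5 embryo arrays. SLC22A2 met the limit on signal only through the donor cells, where it was high, so its entry to the test depended on that filter. DLX5 and CALCR, also among the other imprinted genes, met it only through the embryos. IGF2R itself was not called. PON2, a lactonase with 5 genes between it and PEG10, changed by -4.08 ± 0.25, in the direction of PEG10. TFPI2, with 10 genes between it and PEG10, changed by 1.11 ± 0.19, against that direction. So did CALCR, the calcitonin receptor, with 13 genes between it and PEG10 and a change of 3.44 ± 0.22. UBE3A, a ubiquitin ligase with 3 genes between it and NDN, had 779 to 1104 in embryos and 4244 in donor cells and changed by -2.26 ± 0.16, in the direction of NDN. CD81, with 8 genes between it and PHLDA2, changed by -1.58 ± 0.18. The potassium channel gene KCNQ1, with 5 genes between it and PHLDA2, had a change of 0.59 ± 0.31 that did not pass the threshold.

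Genes that protect imprints or write DNA methylation were mostly higher in embryos: 11 of 13 tested rose (84.6%) and 2 fell (15.4%), with a median log2 change of 2.25, beside 34.9% higher and 44.9% lower and a median of -0.31 over all tested genes. DNMT1 had 15982 to 49658 in embryos and 1238 in donor cells, a log2 change of 4.89 ± 0.13 (limma, adjusted p = 2.17e-10). DNMT3A, which sets new methylation, changed by 3.46 ± 0.17, and SETDB1, a histone methyltransferase of silenced chromatin, by 3.42 ± 0.12. PADI6, part of the oocyte complex of maternal effect proteins, had 3377 to 7585 in embryos and was not above background in donor cells. The genes that fell were YY1 (-1.56 ± 0.15) and HDAC1 (-0.87 ± 0.15). PADI6 and ARID4B met the limit on signal only through the embryos. The counts and the median thus describe the genes that passed that limit and not the whole list.

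In the IGF2 pathway, 4 of 10 tested genes rose and 1 fell in embryos, with a median log2 change of 0.41, and the share that rose lay near the 34.9% of all tested genes. IGF1R, the receptor through which IGF2 signals, had 72.6 to 124 in embryos and 633 in donor cells, a log2 change of -2.84 ± 0.34 (limma, adjusted p = 2.19e-05). Of the signal relays, GRB2 and AKT2 were higher in embryos, with log2 changes of 2.04 ± 0.13 and 1.89 ± 0.14, while AKT1 (0.35 ± 0.16) and SHC1 (0.01 ± 0.35) did not pass the threshold. Also higher was the second mannose 6-phosphate receptor, M6PR (1.33 ± 0.14). IGFBP1, which binds IGFs outside the cell, was at least 2.31-fold higher in embryos, with the donor cells not above background. Its log2 change as measured was 2.80 ± 0.56 (limma, adjusted p = 0.000875), and it met the limit on signal only through the embryos.

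**Figure D4:**
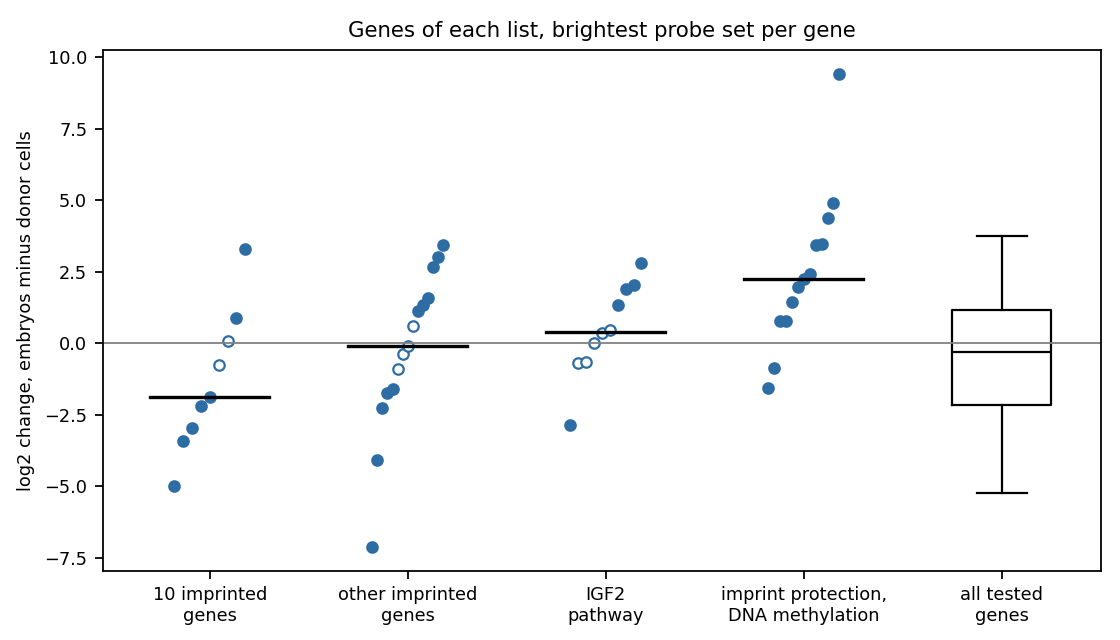
Log2 change between embryos and donor cells of each tested gene in 4 gene lists, with its median as a black line; filled points passed the adjusted p threshold of 0.05 in limma, and the box shows the quartiles and the 5th to 95th percentiles of all 5233 tested genes. The 10 imprinted genes (9 tested) have a median of -1.88, the other imprinted genes -0.10, the IGF2 pathway 0.41 and the imprint protection genes 2.25, beside -0.31 for all tested genes.

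The genes whose pattern over the 6 arrays lay nearest to each member were found by the distance between centred log2 values among 5232 other genes, as a description over 6 arrays of which 1 stands far from the others. IGF2 lay nearest to PHC1 and AGPAT4 (distances 0.19 and 0.19) and SNRPN to LOC100523244 and RNF14 (0.12 and 0.15). DIRAS3 lay nearest to KDM2A and PRCP (0.19 and 0.21), PLAGL1 to CLIP4 and FAM26D (0.25 and 0.30) and PEG10 to FBXO11 and MARCKS (0.29 and 0.29). The nearest genes of the other members were COASY for NDN at 0.35, FLNA for NAP1L5 at 0.44, DPYD for PHLDA2 at 0.47 and PTPRCAP for IGF2R at 0.54. No member was among the 3 nearest genes of another.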

How the data were processed

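The authors deposited 1 linear intensity per probe set and array, per the labels. MAS5 is the tool that the submitters' processing notes list, without a version or scaling target, and no detection calls were used here. Trimmed array means lay between 500.1 and 500.2. RNA (50 ng per sample) was labelled in a two-cycle protocol, per the labels' protocols. Of 24123 probe sets, 124 controls were left out. The annotation gave 1 symbol to 10069 probe sets, several to 198 and none to 13732, and can be old.

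Values were set to log2(signal + 4.57), the 10th percentile of all signals, which understates changes of dim probe sets. The 14399 probe sets with a mean signal above 54.4 (upper 60%) were tested with limma 3.58.1 in R 4.3.3 (lmFit, eBayes with a mean-variance trend) fitted to all 6 arrays with terms for group and for trial; p-values were two-sided, adjusted by Benjamini-Hochberg over all tested probe sets, and called at 0.05. This left 1 residual degree of freedom, to which moderation added 9.17, so precision is limited by the number of arrays. Embryos against donor cells took the mean of the 3 embryo groups, and injected against non-injected embryos the mean of the anti-DJ1 and IgG groups. Both are at the level of trial 1. All adjusted p-values are from this test, and errors are SEs.

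The trial is a block because the design text gives each trial its own IgG control. Over the tested probe sets, deviations of same-trial anti-DJ1 and IgG arrays from their group means correlated at r = 0.559. The scripts were tested on simulated data. Alternatives changed the pseudocount, filter, normalization, trend, block and arrays used. Named genes were all probe sets of the 10 genes, PARK7, and from each list up to 6 genes with the smallest unadjusted p in each comparison. CD81, KCNQ1, TFPI2, YY1, HDAC1 and DCN were added after their values were seen. The members and lists were chosen with earlier results of these data known. A bound counts a group not above background at each array's highest Tag control or its own signal, whichever is higher.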

Additional observations from a re-analysis of the deposited data

How the results depend on the processing

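Calls of the imprinted genes between anti-DJ1 and IgG embryos and between injected and non-injected embryos stayed at 0 in every alternative run, although the count over the array moved. For anti-DJ1 against IgG it was 1 with a pseudocount at the 25th percentile and 58 with only the upper 40% tested, and 0 otherwise. For injected against non-injected embryos the count of 238 became 517 with the 25th percentile pseudocount, 98 with no filter, 1082 with the upper 40% tested, 390 with a filter by mean log2 value (chosen after seeing the data), 0 with no mean-variance trend and 0 without the replicate block, and 0 to 2 when a replicate was left out. The share of its calls that were higher was 72.7%, 82.5% with quantile normalization and 56.8% with the upper 40%. For embryos against donor cells that share was 46.8%, 55.4% with quantile normalization and 58.8% with a common 75th percentile, and the number of imprinted probe sets called, 10 as reported, ranged from 7 to 12. Of those 10, 0 changed sign in 15 alternatives and 7 (DIRAS3, NAP1L5, NDN, PEG10, PHLDA2 and 2 of PLAGL1) passed in every alternative that tested them, including the one without the non-injected array, added after seeing the data.

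Signs turned for values that were not called. Between injected and non-injected embryos, PLAGL1 Ssc.9617.1.A1_at was 0.0034 with quantile normalization, and without the replicate block DIRAS3 was 0.048, SNRPN Ssc.3875.2.A1_at 0.040, IGF2 Ssc.9365.3.S1_a_at 0.25 and IGF2 Ssc.9365.5.S1_a_at 0.39. Between embryos and donor cells, IGF2 Ssc.9365.5.S1_a_at was 0.55 with quantile normalization, 0.44 with a common 75th percentile and 0.19 without the replicate block, and IGF2R was 0.031 with the non-injected array alone. Fits that left out an injected array carried no block, since with it no residual degree of freedom is left, and their trials are unbalanced. Between anti-DJ1 and IgG they ran from -1.77 to -0.13 for IGF2R, -0.59 to 0.022 for PEG10, -0.21 to 0.25 for PLAGL1 Ssc.26773.1.A1_at, -0.40 to 0.59 for Ssc.9617.1.A1_at, -0.40 to 0.55 for SNRPN Ssc.3875.1.S1_a_at, -0.12 to 0.30 for Ssc.3875.2.A1_at, -0.39 to 0.44 for NAP1L5, -0.15 to 0.91 for PHLDA2, and for IGF2 -0.54 to 0.23 (Ssc.9365.3.S1_a_at), -0.25 to 0.56 (Ssc.9365.3.S1_x_at), -0.63 to 0.085 (Ssc.9365.5.A1_at) and -0.43 to 0.85 (Ssc.9365.5.S1_a_at). Between injected and non-injected embryos they ran from -0.93 to -0.11 for IGF2R, -0.12 to 0.19 for PEG10, -0.038 to 0.13 for DIRAS3, -0.41 to 0.068 for SNRPN Ssc.3875.1.S1_a_at, -0.065 to 0.14 for Ssc.3875.2.A1_at, 0.056 to 0.44 for IGF2 Ssc.9365.3.S1_a_at, 0.065 to 0.71 for Ssc.9365.5.S1_a_at and -0.37 to 0.16 for PHLDA2. Between embryos and donor cells, IGF2 Ssc.9365.5.S1_a_at ran from -0.22 to 0.40. The causes were not tested. Signals near the Tag controls limit what NDN, NAP1L5, IGF2R and MEG3 can show in embryos.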

Other observations

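The trials differed for several imprinted genes in both injected groups. PLAGL1 Ssc.9617.1.A1_at was lower in trial 2, with log2 differences from trial 1 of -0.99 for anti-DJ1 and -0.75 for IgG embryos, and PEG10 likewise, at -0.29 for anti-DJ1 and -0.61 for IgG. IGF2 Ssc.9365.5.S1_a_at was higher in trial 2, at 1.28 for anti-DJ1 and 0.89 for IgG, as was IGF2R, at 1.64 for anti-DJ1 and 0.94 for IgG. Of the 15 tested probe sets, 7 were higher and 3 lower in trial 2 in both groups, beside 45.3% and 30.8% of all tested probe sets. The EF1A 3′ over 5′ ratio also separated the trials (24.2 for anti-DJ1 and 23.9 for IgG in trial 1, 8.20 for anti-DJ1 and 9.34 for IgG in trial 2), and its part in these values was not tested.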
